A study of Mus musculus with 36 samples.

Results

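The 8 genes described here build the membrane of the red blood cell and the protein skeleton under it: Slc4a1, Epb42, Ank1, Sptb, Rhag, Rhd, Kel and Ermap. They were found as the non-control probes that carry these gene names on the array. Of 39429 probes on the array, 11 belonged to the 8 genes, 9 of them under the names of 7 genes. The other 2 probes belonged to Epb42, which the array lists under its older symbol Epb4.2 and which was matched through the synonyms of the RefSeq gene table. All 11 probes passed the background filter, and each gene had 1 probe among the 15169 genes tested. This was the brightest by its mean over all 36 arrays, exposed ones included, of those that also passed a filter on fold.

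Blood RNA came from 36 male C57BL/6J mice, 8 to 10 weeks old at irradiation, with 1 one-colour Agilent array per mouse and 6 mice per group, all bled on day 7. Controls were not irradiated. One group received 3 Gy of x-rays. In the mixed field groups neutrons made up 5, 15 or 25% of a total of 3 Gy, which is 0.15, 0.45 or 0.75 Gy of neutrons beside photons, mostly x-rays. The last group received 0.75 Gy of neutrons without x-rays, and the neutron source also gives a small dose of photons. This last group differs from the x-ray and mixed field groups in total dose as well as in radiation type. The labels do not give the shipment, cage or irradiation run of each mouse, and p-values measure the spread between mice within a group.

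Mature red cells have no nucleus and carry little RNA, so that red-cell messages in whole blood come mostly from reticulocytes, the youngest circulating red cells, and from any nucleated precursors. The membrane is held in shape by a mesh of spectrin, which ankyrin and protein 4.2 fasten to the anion exchanger band 3, and by contacts through the Rh proteins. Kell and Ermap are surface proteins of red cells that carry blood group antigens in humans. In a bulk blood sample, a change in the number of such cells and a change in the RNA of each cell cannot be told apart.

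Upstream sequences are shown for comparison for 4 genes called higher than controls after every exposure, by the thresholds given below. That of Sptb, which was called after none, is shown as well. RefSeq start sites (build GRCm38.p6) gave an upstream sequence for 6 of the 8 genes, all but Slc4a1 and Ank1. Each was searched over 250 bases on both strands for the GATA words, which are AGATAA or its variant AGATAG and TGATAA or its variant TGATAG and are bound by the red-cell factor GATA1 and its relatives, and for CCNCNCCC, a word that the red-cell factor KLF1 and its relatives bind. One or more of the GATA words stood upstream of 5 of the 6 genes and of 26.5% of all 32851 promoters, and CCNCNCCC stood upstream of 1 of the 6 and of 45.9% of all promoters. The GATA word of Epb42 began at base -226 from the start, and those of the other 4 genes lay within the last 130 bases. Epb42 was also called higher after every exposure, and its last 130 bases hold no match to any of these words and are not shown. Sptb had none of the GATA words in this window and had 3 matches to CCNCNCCC, of which the 2 more distant ones overlapped. The last 130 bases before the start are given 5′ to 3′ on the gene's strand, with the matches in capitals, for Kel (chr6:41704326-41704455, minus strand), Rhd (chr4:134864406-134864535, plus strand), Rhag (chr17:40811019-40811148, plus strand), Ermap (chr4:119189996-119190125, minus strand) and Sptb (chr12:76710548-76710677, minus strand). A match is only a run of letters, and binding was not measured.
Kel: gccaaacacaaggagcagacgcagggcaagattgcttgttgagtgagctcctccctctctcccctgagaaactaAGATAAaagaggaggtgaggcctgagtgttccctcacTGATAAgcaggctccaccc
Rhd: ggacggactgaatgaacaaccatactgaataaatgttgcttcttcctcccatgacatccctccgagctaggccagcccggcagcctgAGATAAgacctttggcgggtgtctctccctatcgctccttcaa
Rhag: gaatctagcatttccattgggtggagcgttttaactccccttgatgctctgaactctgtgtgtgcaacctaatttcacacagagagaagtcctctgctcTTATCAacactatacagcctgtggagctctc
Ermap: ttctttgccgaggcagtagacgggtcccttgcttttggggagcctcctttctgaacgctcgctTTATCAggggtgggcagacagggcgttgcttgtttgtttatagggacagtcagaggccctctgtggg
Sptb: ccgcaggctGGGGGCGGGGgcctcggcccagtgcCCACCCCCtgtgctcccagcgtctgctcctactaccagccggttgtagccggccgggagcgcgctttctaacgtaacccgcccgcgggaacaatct

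Levels are log2 intensities after subtraction of the median of the array, so that each compares a probe with itself between mice and not with another probe. A gene was called when its unadjusted p from limma was under 0.001 and its p adjusted over all 15169 genes (Benjamini-Hochberg) was under 0.05. The probes of 7 of the 8 genes were well above background on all 36 arrays, that of Sptb on 34, and none was saturated. The arrays were scanned on 10 slides in 4 sessions. No array of the 25% or neutron group was scanned in a session, or on a slide, that held a control or x-ray array, so that session and exposure cannot be told apart in those comparisons. The 5 and 15% groups shared with controls and x-rays 1 slide, which held 1 array of each of the 4 groups. Array medians before centring ran from 4.33 to 4.70 on the log2 scale in controls and from 2.77 to 5.30 over all arrays.

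Of the 8 genes, 7 were higher than in controls after every exposure. Against controls, x-rays raised 7 of 8 members, where 12.9% of all genes tested were called higher. The 5% mixed field raised 7 of 8 against 9.03% of all genes, the 15% mixed field 7 of 8 against 12.5%, the 25% mixed field 7 of 8 against 10.8%, and neutrons alone 7 of 8 against 16.4%. These were the same 7 genes each time, and Sptb was the one not called. Ermap counts here through a probe chosen partly on the exposed arrays, and another of its probes did not move. These calls depended on the processing. With normexp background correction as planned, 0 members were called after x-rays, the 5 or 25% mixed fields or neutrons alone, and Epb42 was lost at 15%. The fitted background SD of that correction exceeded the median signal on 11 of 36 arrays, as given at the end. Slc4a1 after neutrons alone was not called with the deposited expression table (0.83) or without centring (0.69). Without centring neither was Ermap after neutrons alone (0.86) or Epb42 at 15% (1.46). The median log2 fold-change of the 8 members was 2.98, 2.65, 2.78 and 2.65 after x-rays and the 5, 15 and 25% mixed fields and 1.91 after neutrons alone, beside medians between -0.11 and -0.01 over all genes.

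**Figure D1:**
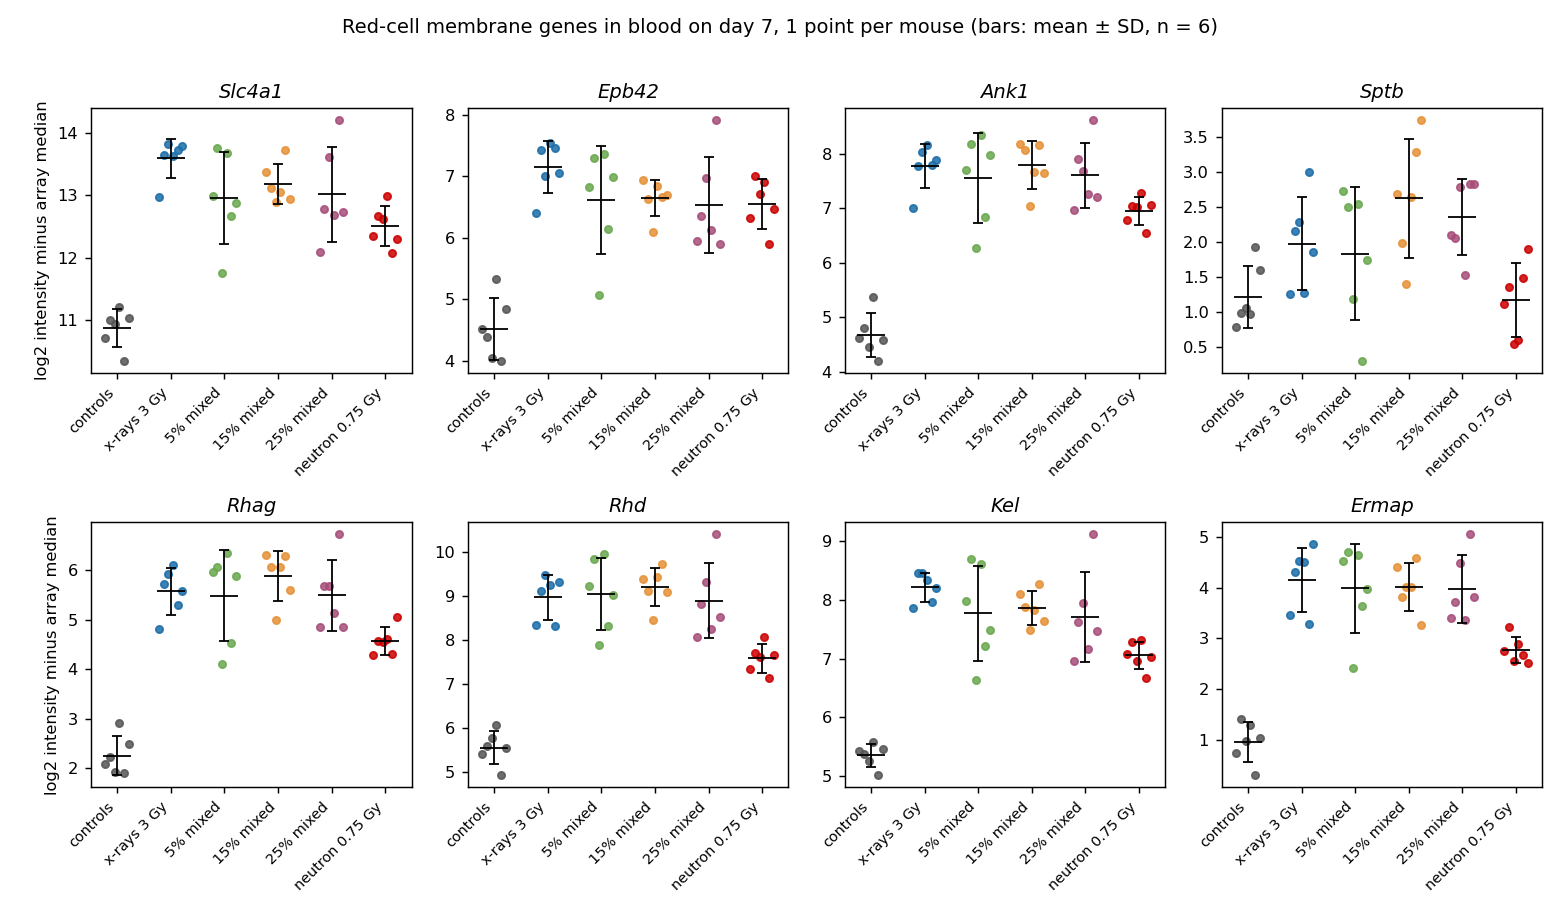
Log2 intensity minus the array median (y axis) of the probe that represented each gene, 1 point per mouse, by group (x axis), with the mean and SD of 6 mice; each panel has its own scale. In 7 panels the exposed mice lie above the controls, with 1 exposed mouse of the 5% group within the control range for Epb42, and in the Sptb panel the groups overlap.

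The anion exchanger and its partners are described first. Slc4a1 encodes band 3, the chloride and bicarbonate exchanger that is the most abundant protein of the red-cell membrane. Its probe (chr11:102210256-102210315, mm9) read 10.35 to 11.22 in controls (median 10.98) and 12.97 to 13.82 after x-rays (median 13.68). Mixed field values were 11.75 to 13.75 (median 12.94) at 5%, 12.90 to 13.73 (median 13.09) at 15% and 12.09 to 14.20 (median 12.76) at 25%, and neutron values 12.08 to 13.00 (median 12.49). No exposed mouse reached down to the control range. The log2 fold-change was 2.72 ± 0.21 (SE) after x-rays (6.57-fold, adjusted p = 1.25e-06), 2.08 ± 0.32 at 5%, 2.31 ± 0.22 at 15%, 2.14 ± 0.32 at 25% and 1.63 ± 0.19 after neutrons alone (3.09-fold, adjusted p = 1.02e-05). The group means ran in the order x-rays, 15, 25 and 5% mixed field, neutrons, controls, and the ranges of all neighbours in that order overlapped except those of neutrons and controls.

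Epb42 encodes protein 4.2, which links band 3 to ankyrin. Its brighter probe (chr2:120844440-120844499, mm9) lay at 4.00 to 5.34 in controls (median 4.45), 6.41 to 7.54 after x-rays (median 7.24) and 5.90 to 7.00 after neutrons (median 6.59). It lay at 5.07 to 7.36 (median 6.90) in the 5% group, 6.09 to 6.93 (median 6.68) in the 15% group and 5.89 to 7.91 (median 6.23) in the 25% group. All exposed groups cleared the controls apart from the 5% group, whose lowest mouse lay inside the control range. The log2 fold-change was 2.63 ± 0.27 after x-rays (adjusted p = 9.05e-06) and between 2.01 and 2.12 after the other 4 exposures. The second probe of Epb42 (chr2:120849386-120849445, mm9), which the array ties to a cDNA clone, rose in all 5 exposures too, by 2.91, 2.97, 3.38 and 3.14 on the log2 scale at 3 Gy and by 1.81 after neutrons alone.

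Ankyrin and spectrin form the skeleton below. Ank1, whose product ankyrin-1 anchors spectrin to band 3, was read by a probe at chr8:24259068-24259127 (mm9). Its levels were 4.198 to 5.37 in controls (median 4.60) and 7.00 to 8.16 after x-rays (median 7.84). They were 6.27 to 8.34 (median 7.84) at 5%, 7.03 to 8.18 (median 7.86) at 15%, 6.98 to 8.61 (median 7.47) at 25% and 6.54 to 7.28 (median 7.03) after neutrons. Every exposed mouse lay above every control. Ank1 rose on the log2 scale by 3.10 ± 0.24 after x-rays (8.58-fold, adjusted p = 1.45e-06), 2.88, 3.12 and 2.93 in the mixed fields and 2.28 ± 0.20 after neutrons alone (4.86-fold, adjusted p = 9.15e-07).

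Sptb encodes beta-spectrin of the red-cell mesh and was the exception. Its probe (chr12:77682089-77682148, mm9) gave 0.78 to 1.92 in controls (median 1.02), 1.25 to 3.00 after x-rays (median 2.00) and 0.54 to 1.90 after neutrons (median 1.23). Mixed field values were 0.29 to 2.72 (median 2.12) at 5%, 1.39 to 3.73 (median 2.66) at 15% and 1.52 to 2.83 (median 2.44) at 25%. All exposed groups overlapped the controls. The log2 fold-change was 0.75 (95% interval 0.08 to 1.43, limma adjusted p = 0.0527) after x-rays, 0.61 (-0.24 to 1.46) at 5%, 1.40 (0.61 to 2.196, limma adjusted p = 0.00596) at 15%, 1.14 (0.53 to 1.75, limma adjusted p = 0.00508) at 25% and -0.05 (-0.62 to 0.52) after neutrons alone. The 15 and 25% differences passed the adjusted threshold and missed the unadjusted one, and the call changed with single arrays and settings. Sptb was called at 15% without 15% replicate 3 (1.65) and at 25% without control replicate 5 (1.28) or without 25% replicate 4 (1.30). It was also called at 15% in a single model over all 36 arrays, at 25% with quantile normalization, the stricter background filter or no centring, and at both with the replicate number as a block. Before centring, its mean log2 intensity was 5.71 in controls, 5.73 after x-rays, 6.94 at 25% and 4.73 after neutrons. The array holds no second Sptb probe for comparison.

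Of the 8 genes, the pair of the Rh complex had the highest log2 fold-changes in all 4 exposures at 3 Gy. Rhag encodes the Rh-associated glycoprotein, an ammonia channel that the Rh protein needs to reach the surface. Its probe (chr17:40976929-40976988, mm9) gave 1.89 to 2.92 in controls (median 2.15), 4.80 to 6.10 after x-rays (median 5.65) and 4.28 to 5.06 after neutrons (median 4.57). The mixed field groups gave 4.11 to 6.35 (median 5.92), 4.98 to 6.30 (median 6.06) and 4.85 to 6.72 (median 5.41) at 5, 15 and 25%. No exposed mouse overlapped the controls. The log2 fold-change was 3.32 ± 0.26 after x-rays (9.98-fold, adjusted p = 1.33e-06), 3.23 ± 0.38, 3.63 ± 0.27 and 3.24 ± 0.32 in the mixed fields, and 2.31 ± 0.20 after neutrons alone (4.97-fold, adjusted p = 9.17e-07).

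Rhd encodes the Rh protein itself. The Rhd probe (chr4:134452018-134452077, mm9) lay at 4.94 to 6.07 in controls (median 5.57) and 8.32 to 9.47 after x-rays (median 9.18). It lay at 7.88 to 9.95 (median 9.12), 8.44 to 9.73 (median 9.25) and 8.08 to 10.39 (median 8.67) in the 5, 15 and 25% groups, and at 7.13 to 8.07 (median 7.64) after neutrons. The neutron mice lay between the controls and the other exposed groups, and overlapped only the lower end of the 5% group. The log2 fold-change reached 3.41 ± 0.26 after x-rays (10.6-fold, adjusted p = 1.33e-06), 3.48, 3.64 and 3.33 in the mixed fields (11.2, 12.5 and 10.1-fold), and 2.03 ± 0.20 after neutrons alone (4.07-fold, adjusted p = 3.19e-06).

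Kel encodes the Kell glycoprotein, a surface endopeptidase. It had the smallest spread among the controls, 5.02 to 5.57 (median 5.40; probe at chr6:41636474-41636533, mm9), and lay at 7.87 to 8.46 after x-rays (median 8.27). The mixed field levels were 6.63 to 8.69 (median 7.74), 7.49 to 8.27 (median 7.85) and 6.97 to 9.12 (median 7.55), and the neutron levels 6.67 to 7.32 (median 7.05). The controls were separate from every exposed group. Kel rose on the log2 scale by 2.86 ± 0.18 after x-rays (7.26-fold, adjusted p = 2.75e-07), 2.42, 2.51 and 2.36 in the mixed fields and 1.70 ± 0.15 after neutrons alone (3.26-fold, adjusted p = 9.44e-07).

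Ermap encodes the erythroblast membrane-associated protein of the immunoglobulin superfamily and has 3 probes, which did not move alike. The probe that represented the gene (A_51_P391716) lay at 0.32 to 1.42 in controls (median 1.01), 3.28 to 4.85 after x-rays (median 4.40) and 2.52 to 3.22 after neutrons (median 2.71). In the 5, 15 and 25% groups it lay at 2.43 to 4.70 (median 4.25), 3.26 to 4.58 (median 4.01) and 3.35 to 5.04 (median 3.76). Every exposed mouse lay above every control. On the log2 scale it rose by 3.18 ± 0.30 after x-rays (9.05-fold, adjusted p = 4.46e-06), 3.01, 3.04 and 3.00 in the mixed fields and 1.80 ± 0.20 after neutrons alone (3.47-fold, adjusted p = 6.46e-06).

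In the fit over all 21585 probes past the background filter, Ermap probe A_55_P2153382 rose as well, by 2.31, 2.18, 2.60 and 2.01 after x-rays and the 5, 15 and 25% mixed fields and by 2.02 after neutrons alone. The third probe, A_55_P2153381, did not move beyond its spread: its levels were 2.69 to 3.76 in controls and 2.203 to 3.66 over all exposed mice, and its log2 differences lay between -0.45 (95% interval -0.99 to 0.09, at 25%) and 0.18 (-0.25 to 0.60, after x-rays). The flat probe and A_51_P391716 start 553 bases apart in the same transcript, and the array lists the same transcript accessions for both. The flat probe failed the filter on fold and so stood in no gene-level test. That filter and the choice of the brightest probe used the exposed arrays too. In controls, the mean log2 intensity before centring was 7.72 for the flat probe and 5.47 for A_51_P391716. The gene-level result of Ermap thus rests on a probe chosen partly through its own rise. The first 30 of the 60 bases of each probe are given 5′ to 3′, so that the probes can be told apart.
A_51_P391716 (chr4:118848540-118848599, mm9): aaataaatacgagactgaagttggcaggtc
A_55_P2153382 (chr4:118859754-118859813, mm9): aagctacatcctgcaaatcagtaatgtgag
A_55_P2153381 (chr4:118849093-118849152, mm9): actggggcacagaaccttcacaggaccaaa

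**Figure D2:**
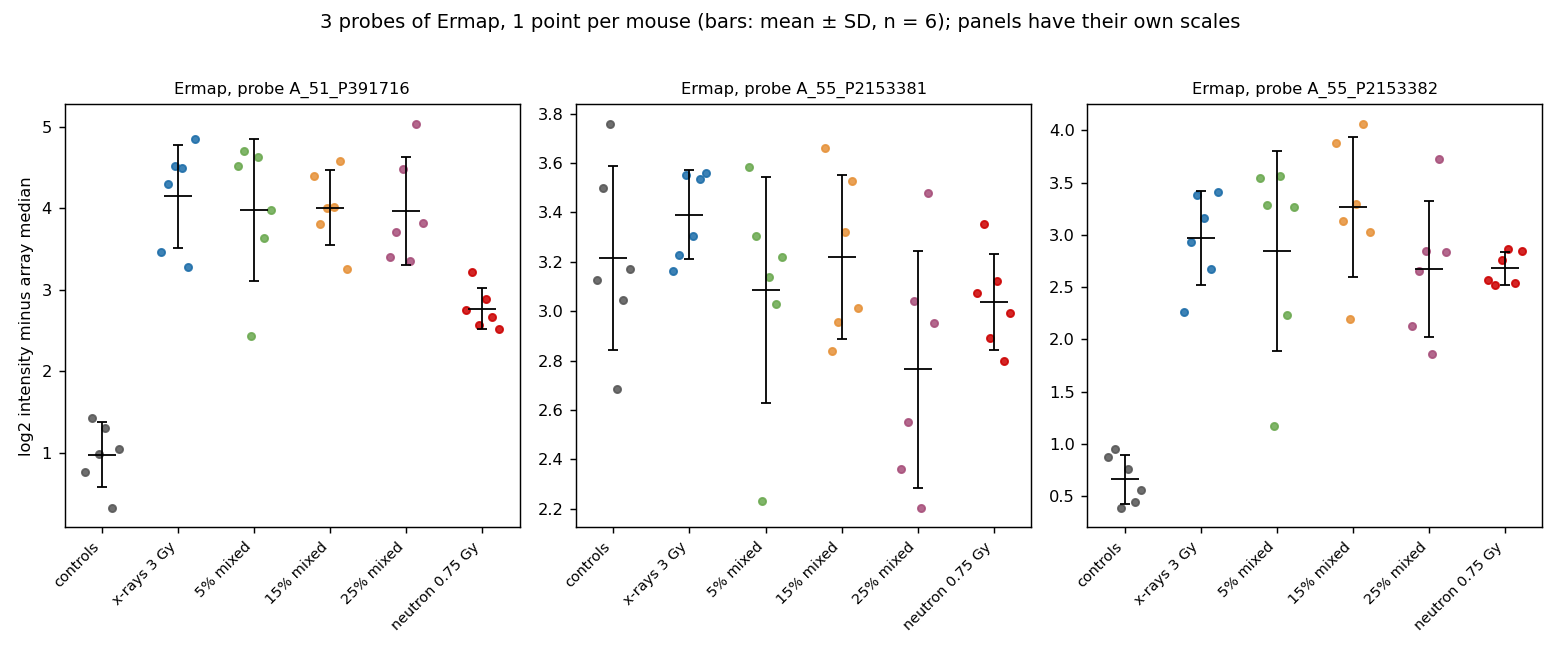
Log2 intensity minus the array median (y axis) of the 3 Ermap probes, 1 panel per probe with its own scale, 1 point per mouse by group (x axis), with the mean and SD of 6 mice. The outer panels show the rise over controls after every exposure, and the middle panel (A_55_P2153381) shows overlapping groups.

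The separation of single mice followed the calls. All 6 exposed mice lay above all 6 controls for 7 members after x-rays (14.6% of all genes did so), for 6 members at 5% (7.67%), for 7 at 15% (10.9%), for 7 at 25% (12.1%) and for 7 after neutrons (15.2%). Among all genes ranked by their log2 fold-change after x-rays, 0.251% changed upwards by more than Rhd and 1.05% by more than Epb42. After neutrons alone 2.21% of genes changed by more than Rhag, the highest member there, and 7.29% by more than Slc4a1, the lowest of the 7 called. In the 5, 15 and 25% mixed fields 5.44, 5.60 and 5.18% changed by more than Epb42. Sptb ranked far lower: 28.2% of genes changed by more than it after x-rays and 48.1% after neutrons alone.

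**Figure D3:**
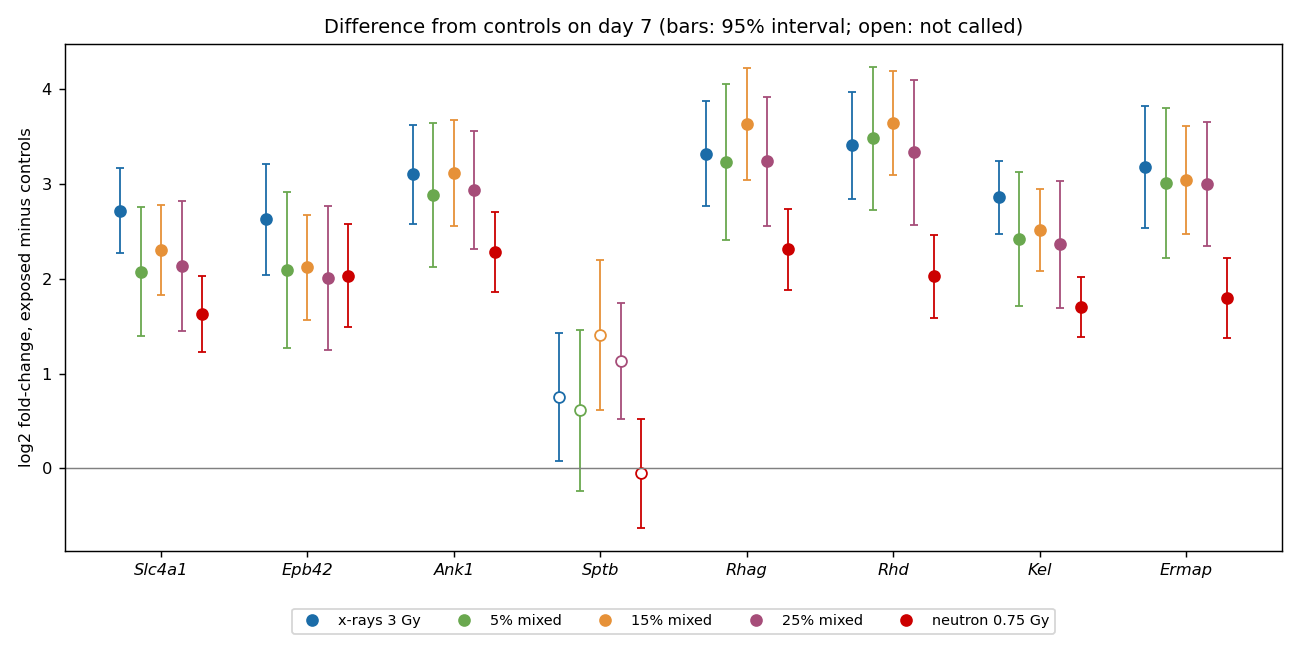
Log2 fold-change against controls (y axis) of the 8 genes (x axis) for the 5 exposures, with 95% intervals from limma; filled points were called and open points were not. The 4 exposures at 3 Gy lie between 2.01 and 3.64 for the 7 called genes, neutrons alone between 1.63 and 2.31, and all 5 Sptb points are open.

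The control differences were also read within scan sessions where a session held both groups. For x-rays, the session with 5 arrays of each group gave differences of 2.55 to 3.38 for the 7 called genes and 0.75 for Sptb, and the slide with 1 array of each gave 2.84 to 3.87 and 0.80. On that slide the 5% array exceeded the control array by 1.72 to 2.65 for the 7 genes and lay 0.76 below it for Sptb (-0.76), and the 15% array exceeded it by 1.95 to 3.07, and by 0.34 for Sptb. With slide as a block, the 7 genes remained called after x-rays, while none was called at 5 or 15%, where the estimate then rests on that 1 pair of arrays.

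No member was called between a mixed field and x-rays, and the mixed fields were not compared with each other. Against x-rays, 0 of 8 members differed after the 5% mixed field, where 0% of all genes were called, 0 of 8 after the 15% mixed field (4.07% of all genes) and 0 of 8 after the 25% mixed field (2.6%). By limma at an unadjusted p below 0.05 the count of members was also 0 in all 3 comparisons, and the count called stayed at 0 under each alternative setting that was run. The member log2 differences from x-rays lay between -0.64 and 0.65, and the 95% intervals were wide: for Slc4a1 -1.37 to 0.09 at 5%, -0.95 to 0.13 at 15% and -1.30 to 0.14 at 25%, and for Rhag -0.96 to 0.78, -0.35 to 0.97 and -0.82 to 0.66. Differences within these bounds could not be told from none with 6 mice per group. On the slide shared by 1 array of each group, the 5% array lay below the x-ray array for all 8 members by 0.91 to 1.56 (differences of -0.91 to -1.56), and the 15% array by 0.46 to 0.97 (-0.46 to -0.97). These are single arrays, and the 15% one was the lowest of its group for 7 of the 8 members.

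Neutrons alone gave lower levels than x-rays for 5 of the 8 members, where 6.36% of all genes were called lower. Rhd differed by -1.38 (95% interval -1.93 to -0.83, adjusted p = 0.00173), Ermap by -1.38 (-1.98 to -0.78, adjusted p = 0.00291), Kel by -1.16 (-1.56 to -0.76, adjusted p = 7.04e-04), Slc4a1 by -1.09 (-1.55 to -0.63, adjusted p = 0.00244) and Rhag by -1.01 (-1.52 to -0.49, adjusted p = 0.00728). The levels after x-rays were thus 2.01 to 2.61 times those after neutrons alone. All 6 neutron mice lay below all 6 x-ray mice for Rhd, Kel and Ermap, and the groups overlapped by their edges for Slc4a1 and Rhag. Ank1 (-0.82, 95% interval -1.29 to -0.35, limma adjusted p = 0.0143), Sptb (-0.81, -1.52 to -0.10) and Epb42 (-0.60, -1.14 to -0.06) were not called. The total doses of these groups differ, and they share no scan session.

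Probes of 1 gene did not always give the same call here. The second Epb42 probe lay below x-rays in all 6 neutron mice (-1.10, adjusted p = 0.00678 over all probes), while the brighter one was not called. For Ermap, A_55_P2153382 differed by -0.29 (95% interval -0.74 to 0.16), against -1.38 for the probe that represented the gene. With the probes of a gene that passed both filters averaged, Ermap was no longer called (-0.84). That average leaves out the flat Ermap probe. The Rhag call was lost when any of 9 of the 12 arrays was left out, whereas those of Rhd, Kel, Slc4a1 and Ermap held without each of the 12 in turn. Rhag was also not called with quantile normalization (-1.05), in the single model over all 36 arrays (-1.01) or without centring (-1.20). Epb42 was called lower with the deposited expression table (-1.36). Ank1 was called without x-ray replicate 1 (-0.97), the lowest x-ray array for 6 of the 8 members. With the replicate number as a block, which does not pair the mice, 3 of the 5 members remained called: Rhd, Kel and Ermap.

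**Figure D4:**
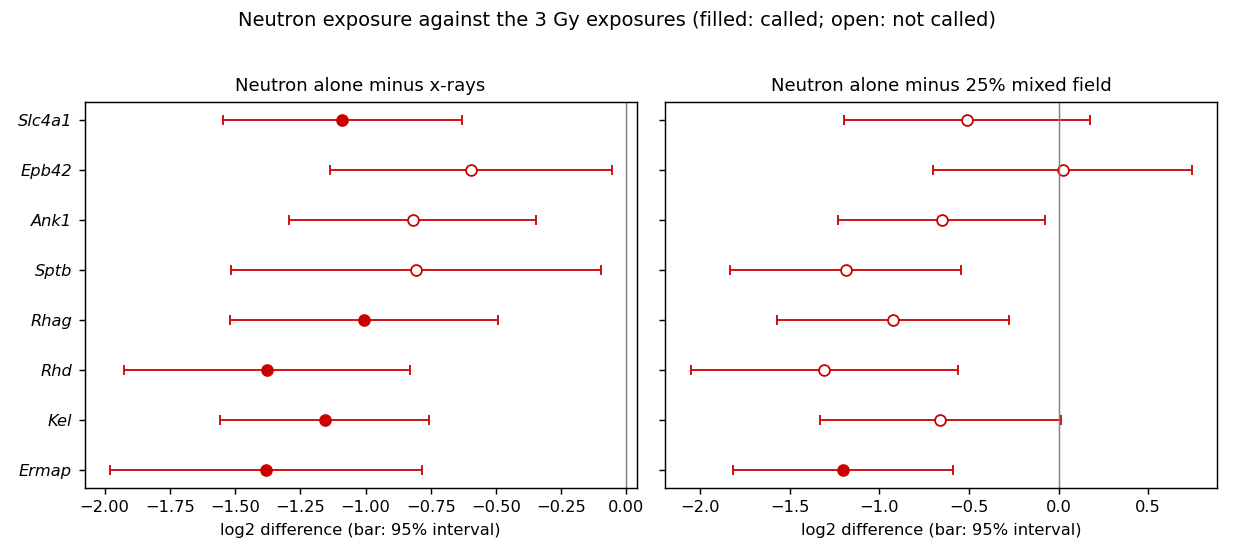
Log2 difference (x axis) of neutrons alone from x-rays (left) and from the 25% mixed field (right) for the 8 genes (y axis), with 95% intervals; filled points were called. On the left 5 genes are filled, between -1.38 and -1.01, and on the right only Ermap is, at -1.20.

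The 25% mixed field and neutrons alone hold the same nominal neutron dose, with and without x-rays, and were scanned in the same session. Neutrons alone gave a lower level of 1 of 8 members, Ermap, at -1.20 (95% interval -1.82 to -0.59, adjusted p = 0.00818), where 7.33% of all genes were called lower. By limma, Rhd (-1.31, adjusted p = 0.0150), Sptb (-1.19, adjusted p = 0.0115) and Rhag (-0.93, adjusted p = 0.0377) passed the adjusted threshold and not the unadjusted one. All 6 neutron mice lay below all 6 mice of the 25% group for Rhd and Ermap. The Ermap call was lost without any of 8 of the 12 arrays and was absent in its probe A_55_P2153382 (0.01, 95% interval -0.57 to 0.58), whereas the second Epb42 probe was called lower (-1.33, adjusted p = 0.00404) and the brighter one was not (0.02, -0.70 to 0.75). The number of calls moved with the scaling of the arrays and the threshold: 7 of 8 members were called lower with no scaling, 4 with the adjusted threshold alone, and 0 with scaling on the 75th percentile or by quantiles. The 7.33% belongs to the main setting. No share of all genes stands beside these other counts, so they are not read as results about the members. With no scaling, the median of all genes differed by -0.96 between these groups, and the array medians were 3.60 to 5.30 in the 25% group and 3.22 to 3.93 in the neutron group.

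Within groups the members varied together from mouse to mouse, Sptb less closely than the others. After subtraction of the group means, the correlation of a member with the mean of the other 7 was 0.80 to 0.94 over the 36 arrays for 7 members and 0.40 for Sptb. These points share the array and its centring, and extreme arrays often had extreme medians: the highest members of the 25% group were in replicate 5, in 8 of 8 members, which had the lowest array median of its group (3.60), and the lowest of the 5 and 15% groups were in replicate 3, in 7 of 8 members each, with medians of 4.64 and 5.28, of which the latter was the highest of its group. The part of the array median in this pattern was not tested. Among genes outside the members, the 5 whose deviations from the group means over the 36 arrays were most like the mean deviation of the members were Slc43a1 (r = 0.96), an amino acid transporter, Nt5c3 (r = 0.95), a pyrimidine nucleotidase of maturing red cells, Gm6578 (r = 0.95), a transcribed pseudogene, Pithd1 (r = 0.95) and Rab10 (r = 0.95), a small GTPase of vesicle traffic. All 5 were called higher after all 5 exposures, and 19.2% of all genes had r above 0.5.

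Of 36 other listed genes of the red-cell membrane, 32 were tested. Higher than controls were 22 after x-rays, 16 at 5%, 23 at 15%, 18 at 25% and 21 after neutrons alone, with at most 1 lower. Of all genes, 12.9, 9.03, 12.5, 10.8 and 16.4% were called higher in that order. Their median log2 fold-change was 1.55, 1.54, 1.73, 1.45 and 1.24 in that order, against 2.98, 2.65, 2.78, 2.65 and 1.91 for the 8 members. The largest mean changes over the 5 exposures were those of Tmod1 (3.28), which caps the short actin filaments of the skeleton, Add2 (3.25), the beta-adducin that joins actin to spectrin, and Icam4 (3.06), an adhesion molecule of red cells, and each was called after all 5 exposures. At the other end stood Add3 (-1.18), gamma-adducin, called lower after the mixed fields and neutrons alone, Slc2a1 (-0.18), a glucose transporter, and Tpm3 (0.11), a tropomyosin, neither of them called. Against x-rays, neutrons alone gave 10 of the 32 genes lower, where 6.36% of all genes were called lower, and 1 higher.

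**Figure D5:**
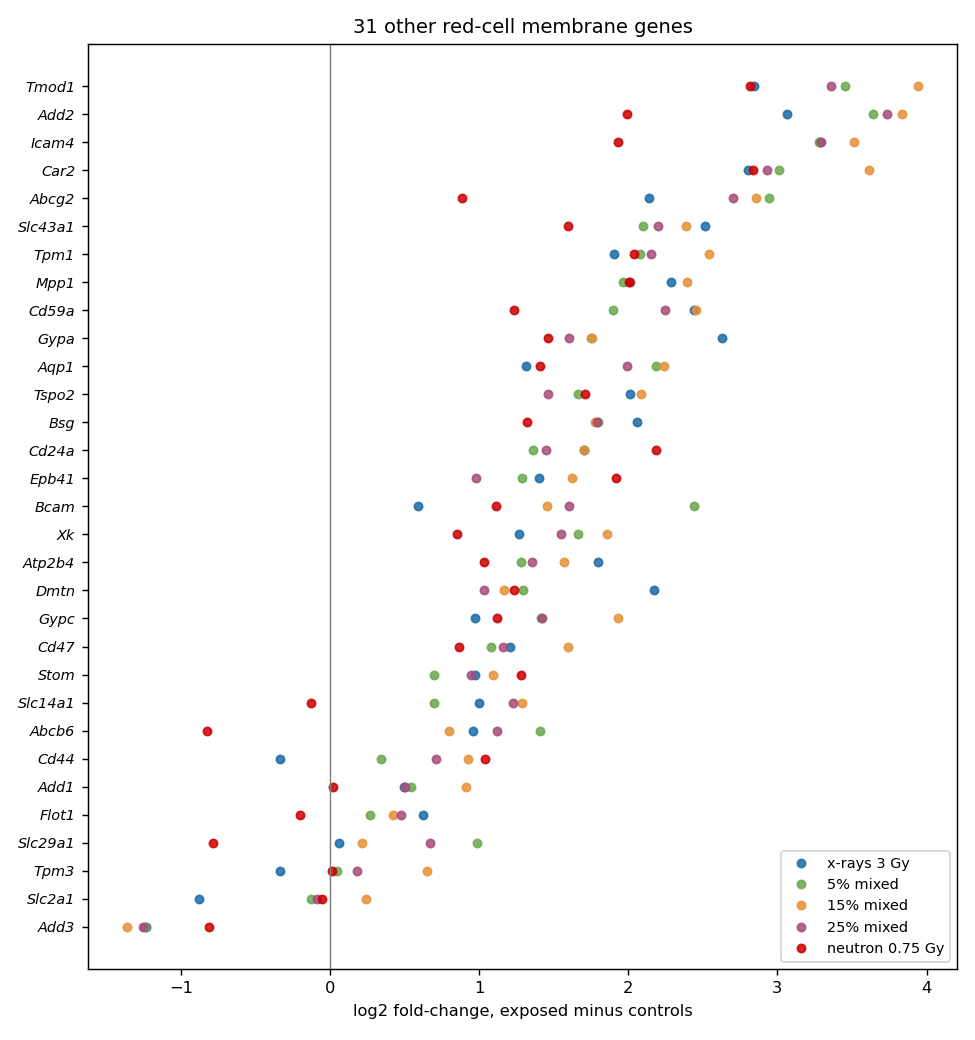
Log2 fold-change against controls (x axis) of 31 of the 32 other genes of the red-cell membrane (y axis), with 1 point per exposure, ordered by the mean over the 5 exposures. Tmod1, Add2 and Icam4 lie at the top with means of 3.28, 3.25 and 3.06, and Add3 at the bottom with -1.18.

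Markers of the cells in blood give the setting of these values. Of 12 red cell and reticulocyte genes outside the members, 8 were higher after x-rays, 6, 9 and 5 after the 5, 15 and 25% mixed fields and 12 after neutrons alone, and none was lower. Against x-rays, neutrons alone gave 1 of these 12 lower and 11 not called, with a median log2 difference of 0.38, beside the median of -1.05 for the 8 members. Klf1, the erythroid transcription factor, chosen after its values were seen, rose by 2.73 after x-rays and 1.59 after neutrons alone. B-cell markers fell in 10 of 10 genes after x-rays and each mixed field, with a median of -4.31 after x-rays, and in 9 of 10 after neutrons alone, with a median of -1.36. Their log2 summed level relative to the array median was 11.3 to 12.2 in controls, 6.18 to 9.35 after x-rays and 10.1 to 10.6 after neutrons. That of the red cell genes was 16.49 to 16.68, 17.1 to 18.5 and 17.9 to 18.4. At 5, 15 and 25% the B-cell sum was 6.87 to 8.48, 6.23 to 8.55 and 6.93 to 8.60. The red cell sum there was 16.52 to 18.22, 16.65 to 18.64 and 16.62 to 18.26, and each of these ranges overlapped the controls. The red cell genes include Hba-a1, Hbb-b1 and Hbb-bt, and the study's methods state that excess globin RNA was reduced before labelling. None of these globin genes was called after x-rays (0.76, 0.99 and 1.10), and each was called higher after neutrons alone (0.92, 2.02 and 1.89). The part of globin RNA in the summed level was not tested. T-cell markers were lower in 3, 5, 5, 4 and 2 of 10 genes in the order above, and 3 of 9 neutrophil genes were higher after each exposure, with 1 lower after 15 and 25% mixed fields and neutrons alone. None of 5 monocyte genes was called after the exposures at 3 Gy and 2 were higher after neutrons, and of 9 platelet genes 0, 0, 4, 5 and 1 were higher. Of all genes, 12.9, 9.03, 12.5, 10.8 and 16.4% were called higher after x-rays, the 5, 15 and 25% mixed fields and neutrons alone. Counts near these shares are not read as results about a cell type. The share of all genes called lower is not given here. The counts of T-cell and neutrophil genes called lower are therefore not read as results either. The part of the make-up of blood in the level of the members was not tested.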

How the data were processed

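Blood RNA of 36 mice was hybridised to one-colour Agilent arrays, and per the labels and the submitters' processing notes the authors extracted the deposited scanner intensities with Agilent Feature Extraction 12.0.2. The deposited expression table holds log2 values normalized by the authors and served as an alternative. Here the processed signal intensity was log2-transformed, and each array's median was subtracted. Control spots were left out and spots of a probe averaged. The background filter kept a probe when over 75% of arrays flagged its signal as positive and significant. This flag is separate from the one for well above background. For gene tests at least 20% of arrays also had to lie 1.5-fold from the probe's median, after which the brightest probe stood for its gene. Both steps used all arrays, exposed ones included. Each comparison was fitted on its own 12 arrays with limma 3.58.1 (lmFit and eBayes; R 4.3.3, with the data.table package, version 1.17.8), which replaced the random-variance test of the study. A call required an unadjusted p under 0.001 and a p adjusted by Benjamini-Hochberg under 0.05, and ± gives the SE of a difference. Scripts were tested on simulated data.

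The members and gene lists were chosen with earlier results of these data known. All members were named with all probes, together with the 3 largest and 3 smallest mean changes of the other membrane genes and the 5 genes most alike. Alternatives covered scaling, background correction, filters, probe averaging, the model, blocks for slide, scan session and replicate number, the threshold, and leaving out each array. Some list genes are counted and not reported here by name. No 2 arrays held identical values. The number of arrays limits the precision. Figures were drawn with Python 3.11.15, pandas 2.3.3 and matplotlib 3.10.9.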

Additional observations from a re-analysis of the deposited data

Results flagged for a closer look

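Single mice stood apart from their group in 3 of 66 sets of 6 values, where chance gives about 1 in 20. Slc4a1 was lowest in x-ray replicate 1 at 12.97, with the next mouse at 13.64. Ank1 was lowest in the same mouse at 7.00, with the next at 7.77. Epb42 was lowest in replicate 3 of the 15% group at 6.09, with the next at 6.62.

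The change against controls differed between neutrons alone and x-rays for 5 genes, tested as the direct difference of the exposed groups: -1.09 for Slc4a1, -1.01 for Rhag, -1.38 for Rhd, -1.16 for Kel and -1.38 for Ermap on the log2 scale. Between neutrons alone and the 25% mixed field it differed for Ermap (-1.20).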

How the results depend on the processing

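With normexp background correction as planned, no member was called higher than controls after x-rays, the 5 or 25% mixed fields or neutrons (0 each; 6 at 15%), nor lower after neutrons than after x-rays (0) or at 25% (0). Its fitted background SD exceeded the median signal on 11 of 36 arrays. Among the control and x-ray arrays, only control replicate 3 and x-ray replicate 6 were of these. With the lowest 0.5% of spots raised first, chosen after seeing the data, the SD exceeded the median signal on 0 arrays. All 40 member differences from controls then kept their direction and call. Raising these spots takes away the low tail before the fit, and the fitted SD was then at most 0.104. This step lowers the fitted SD by itself, so the 0 arrays do not test the planned fit. Under the planned normexp the sign turned against controls for Slc4a1 (-0.039) and Sptb (-0.071) at 5% and Slc4a1 after neutrons (-0.092), against x-rays for Rhd at 5% (-1.07), for Slc4a1 (0.30), Epb42 (0.094), Kel (0.29) and Ermap (0.33) at 15% and for Ank1 (0.044), Rhag (0.089), Rhd (0.082) and Ermap (0.047) at 25%, and for Epb42 between neutrons and 25% (-0.81). With the lowest spots raised it turned against x-rays at 25% for Slc4a1 (0.021), Ank1 (0.43), Rhag (0.44), Rhd (0.47), Kel (0.054) and Ermap (0.28), and for Epb42 between neutrons and 25% (-0.71), where 7 members were then lower.

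With slide as a block, 0 members were called against controls at 5% and 0 at 15%, and 0 between neutrons and 25%. With scan session as a block the counts at 5 and 15% were 0 and 3. Both blocks leave 1 pair of arrays there and turned Sptb against controls at 5% (-0.76), Rhd against x-rays at 5% (-0.98), and Sptb (-0.46), Ank1 (-0.85), Rhag (-0.60) and Rhd (-0.87) against x-rays at 15%; the slide block turned Epb42 between neutrons and 25% (-0.24). A scan session block was not possible for the 25% and neutron arrays against controls or x-rays. The replicate numbers did not pair the mice (mean correlation 0.037 for 90 same-number pairs and -0.0061 for 450 others). With the replicate block, 3 members were lower after neutrons than after x-rays and 0 than at 25%, and Sptb was called at 15 and 25% against controls. Sptb was also called at 15% by the single model and at 25% by quantile normalization and the stricter filter. Of the 32 other membrane genes, 22, 16, 23, 18 and 21 were higher than controls. The planned normexp gave 0, 0, 13, 1 and 0, the slide and session blocks 0 at 5% and 0 at 15%, and uncentred values 13 at 15% and 10 after neutrons.

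Without centring, chosen after seeing the data, the median of all genes moved against controls to -0.84, -0.75, -0.66, -0.02 and -1.04, and calls that were lower to 90.0, 87.8, 73.4, 32.3 and 92.3%, beside 56.5, 60.8, 56.8, 56.1 and 55.4% with median centring and 40.9, 53.5, 48.1, 50.9 and 41.2% with scaling on the 75th percentile. Uncentred values left 6 members called against controls at 15% (Epb42 lost), 8 at 25% (Sptb gained) and 5 after neutrons (Slc4a1 and Ermap lost), and the deposited values left 6 after neutrons (Slc4a1 lost). Uncentred values turned Sptb at 5% against controls (-0.063), Slc4a1 (0.25), Epb42 (0.21), Ank1 (0.66), Rhag (0.75), Rhd (0.76), Kel (0.33) and Ermap (0.65) at 25% against x-rays, and Epb42 between neutrons and 25% (-0.999), where 7 members were lower. The 75th percentile turned Sptb after neutrons (0.22), Rhd at 5% (-0.11) and Ank1 at 15% (-0.13) against x-rays, and quantile normalization turned the same differences (0.077, -0.0753 and -0.30) and Rhd at 15% (-0.000871); both gave 0 members lower between neutrons and 25%. The deposited table turned Rhd at 5% (-0.085), Epb42 (0.17), Ank1 (-0.37), Rhag (-0.040) and Rhd (-0.063) at 15% and Epb42 at 25% (0.026) against x-rays, and Epb42 between neutrons and 25% (-1.38), where it gave 3 lower. Averaged probes, without those that failed a filter, turned Ermap at 15% against x-rays (0.077) and Epb42 between neutrons and 25% (-0.65), with 0 lower. The stricter filter gave 2 lower there and the adjusted p alone 4.

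Leaving out each array gave 7 members higher than controls after x-rays, 5% and neutrons, and 7 to 8 at 15 and 25%, 4 to 6 lower after neutrons than after x-rays and 0 to 2 than at 25%. Differences near 0 changed sign: Sptb after neutrons against controls (-0.20 to 0.0896), Epb42 between neutrons and 25% (-0.10 to 0.30), and against x-rays Sptb (-0.32 to 0.17), Ank1 (-0.38 to 0.035), Rhag (-0.26 to 0.19), Rhd (-0.11 to 0.31) and Ermap (-0.34 to 0.14) at 5%, Ank1 (-0.14 to 0.17) and Ermap (-0.32 to 0.0088) at 15% and Rhag (-0.33 to 0.047) and Rhd (-0.37 to 0.092) at 25%. The cause of a changed call or sign was not tested. Counts of members under these alternatives stand without the share of all genes and are not read as results about the members.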
